A study of Mus musculus with 4 samples.

Results

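Lin28a, Lin28b, Hmga1, Hmga2, Igf2bp1, Igf2bp2, Igf2bp3, Trim71, Sall4 and Mycn were followed in the posterior part of mouse embryos that lack Jmjd3. They were chosen by name as developmental timing and oncofetal genes. These 10 genes and the lists set beside them were chosen with earlier results of these data known. Probes were matched to the 10 genes by accession. This gave 17 probes for 9 of the 10, out of 18220 genes that could be named on the array, and Trim71 was not analysed here.

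LIN28 proteins bind the precursors of let-7 microRNAs and keep them from maturing, and let-7 in turn represses the mRNAs of LIN28, HMGA2, the IGF2BP proteins and TRIM71. The pair was first described in the worm Caenorhabditis elegans, where it sets the order of larval stages. In the mouse the LIN28 genes are high in early embryos and fall as let-7 accumulates, and their dose is known to affect the length of the tail. SALL4 and MYCN are transcription factors of progenitor cells, and several of these genes are switched on again in tumours.

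The arrays compared 2 genotypes at E9.5. Jmjd3-/- embryos lack both working copies of Jmjd3, now named Kdm6b, which encodes a demethylase of histone H3, and wild-type embryos carry both. Embryos of both genotypes were bred from Jmjd3+/- parents, staged by mating time and somite number, and only their posterior part was used. Each genotype had 2 independent RNA samples, each labelled with Cy3 on its own 1-colour Agilent array. Jmjd3-/- replicate 1 and replicate 9 are called mutants 1 and 9 here, and wild-type replicate 3 and replicate 4 are called wild types 3 and 4. The sources used here do not say how Jmjd3 was inactivated or whether a sample is 1 embryo or a pool. P-values therefore measure only how these samples vary, which may be technical in part.

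The microRNAs that the LIN28 proteins act on were not measured by these arrays, but their sequences show what the pathway reads. In RefSeq (GRCm38.p6) 11 mature mouse microRNA names share the seed at bases 2 to 8 of let-7. Below, capitals mark that seed in 4 of them.
let-7a-5p (chr13:48538239-48538260, minus strand): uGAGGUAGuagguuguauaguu
let-7d-5p (chr13:48536078-48536099, minus strand): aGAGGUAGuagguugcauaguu
let-7g-5p (chr9:106178846-106178867, plus strand): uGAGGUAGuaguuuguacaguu
miR-98-5p (chrX:151913229-151913250, plus strand): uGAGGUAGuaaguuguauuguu
LIN28 proteins are known to recognise GGAG in the loop of let-7 hairpins through their zinc knuckles. Of 12 hairpins of the family with both arms listed, 9 hold GGAG between the arms. The let-7g hairpin holds it (capitals) and the miR-98 hairpin does not.
let-7g hairpin (chr9:106178840-106178927, plus strand): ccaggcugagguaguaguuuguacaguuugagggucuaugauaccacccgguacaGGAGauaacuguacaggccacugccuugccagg
miR-98 hairpin (chrX:151913214-151913321, plus strand): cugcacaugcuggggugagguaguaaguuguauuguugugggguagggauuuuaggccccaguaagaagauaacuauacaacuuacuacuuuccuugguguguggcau

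Between 59.8% and 63.0% of probes were well above background on an array, 0 spots were saturated, and the number of arrays limits the precision. The arrays stood apart unevenly. The wild-type arrays differed by more than 2-fold at 157 of 13581 genes and the Jmjd3-/- arrays at 431. Mutant 1 was that far from wild types 3 and 4 at 805 and 705 genes respectively, and mutant 9 at 354 and 332. The wild-type arrays lay between the others on the slide, so inner against outer position cannot be told apart from the genotype. The Kdm6b probe read 0.35 and 0.11 in mutants 1 and 9 against 2.15 and 2.23 in wild types 3 and 4. These are normalised log2 signals, on a scale where 0 is the 75th percentile of the array. The log2 difference was −1.96 (SE 0.12, limma adjusted p = 0.149), and the sources used here do not say whether the probe lies in an altered part of the gene.

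The comparison asks which of these transcripts differ between Jmjd3-/- and wild-type. Lin28a and Sall4 stood highest above wild-type, at 1.70-fold and 1.60-fold, while Lin28b and Hmga1 lay within 0.04 of wild-type on the log2 scale. The 3 Igf2bp genes and Mycn were between 1.09-fold and 1.25-fold of wild-type. All 17 probes were well above background on all 4 arrays. Of the 9 genes, 8 had a positive log2 difference (Jmjd3-/- minus wild-type) and 1 a negative one, beside 46.9% of all genes with a positive one. At an adjusted p under 0.05 (limma, Benjamini-Hochberg over 13581 genes), 0 of the 9 passed, and 5 of all genes did (0.0368%), 3 of them higher (0.0221%) and 2 lower (0.0147%). At an unadjusted p under 0.05, 2 of the 9 passed, Sall4 and Lin28a, beside 11.1% of all genes. Lin28a lay close to that limit and missed it without a filter on dim probes and in the fit over probes. In 6 of the 9 both Jmjd3-/- arrays lay above both wild-type arrays, beside 23.0% of all genes, and in 0 both lay below, beside 23.7%. The median log2 difference of the 9 was 0.15, against −0.01 over all genes tested. It was 0.28 for mutant 1 and 0.10 for mutant 9, each against the wild-type mean.

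**Figure D1:**
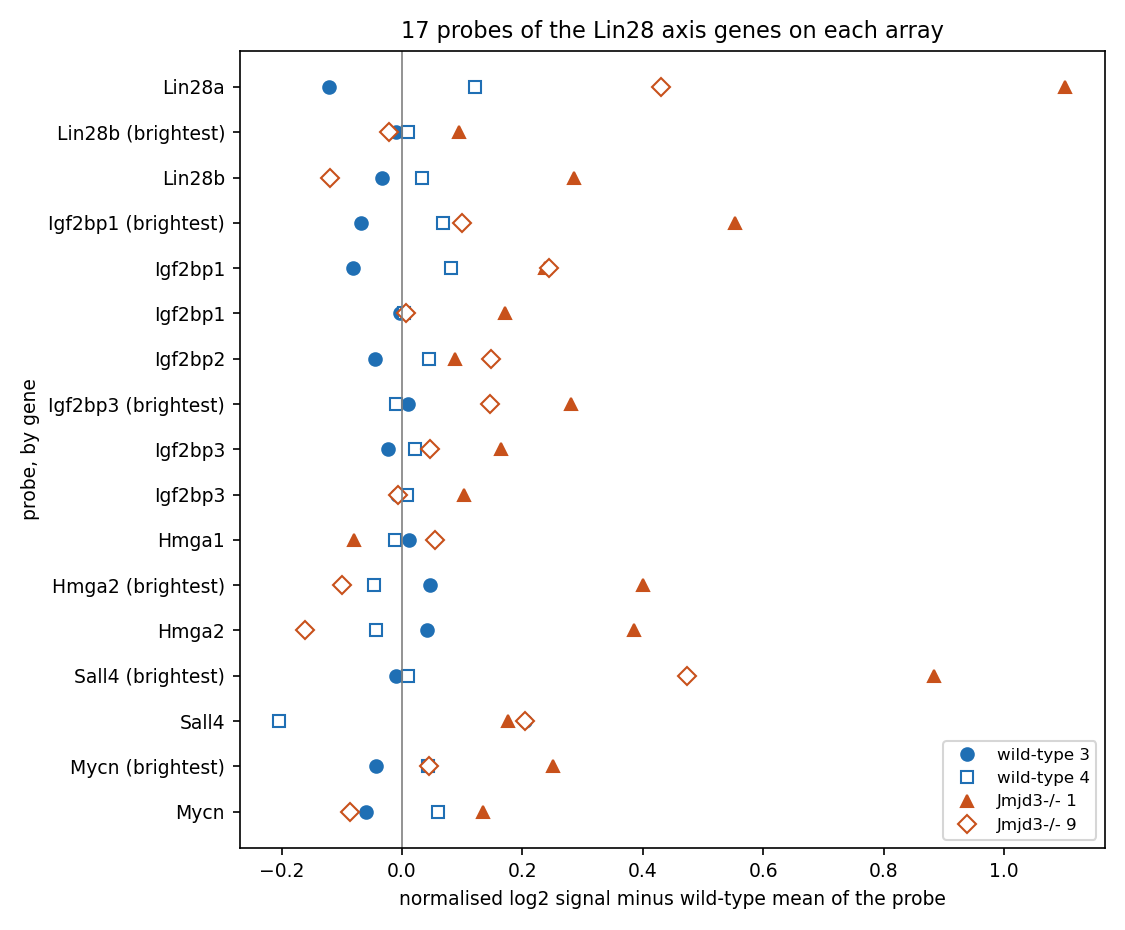
Normalised log2 signal of each of the 17 probes on each array, with the wild-type mean of that probe set to 0 (circles: wild-type replicate 3, squares: wild-type replicate 4, triangles: Jmjd3-/- replicate 1, diamonds: Jmjd3-/- replicate 9). Replicate 1 was the highest of the 4 arrays at 13 of 17 probes, and both Jmjd3-/- arrays lay above both wild-type arrays at 9.

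LIN28A and LIN28B are the paralogous RNA-binding proteins at the head of the pathway. The Lin28a probe (A_52_P294305, accession NM_145833, gene on chromosome 4) read 2.73 and 2.06 in mutants 1 and 9. It read 1.51 and 1.75 in wild types 3 and 4. Both Jmjd3-/- arrays lay above both wild-type arrays, and mutant 1 stood 0.67 above mutant 9, a wider gap than the 0.24 between the wild-type arrays. The log2 difference was 0.77 (SE 0.27, n = 2 per genotype, 95% interval 0.0039 to 1.53), with a limma adjusted p of 0.449. A difference at least this high was found in 212 of 13581 genes. Without mutant 1 it was 0.43, and without mutant 9 it was 1.10.

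Lin28b was read by 2 probes. The brighter (A_52_P676861, chromosome 10) gave 3.20 and 3.08 in mutants 1 and 9 and 3.09 and 3.11 in wild types 3 and 4. The genotypes overlapped, with mutant 9 the lowest of the arrays. The log2 difference was 0.04 (SE 0.08, 95% interval −0.20 to 0.27, limma adjusted p = 0.892). The dimmer Lin28b probe, at −2.67 and −3.07 against −2.99 and −2.92, overlapped too and differed by 0.08. The interval of the brighter probe ends below the fitted difference of Lin28a, but overlaps the Lin28a interval of 0.0039 to 1.53.

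The paralogs were also set against each other. The Lin28a signal less the Lin28b signal was −0.47 and −1.02 in mutants 1 and 9, and −1.58 and −1.36 in wild types 3 and 4. The genotypes did not overlap in this measure and their means differed by 0.73. An exact two-sided permutation test gave p = 0.333, the smallest value this test can give for 2 arrays against 2, so it cannot call the difference.

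The sequence before the start site is shown for both paralogs. Capitals mark matches to 3 motifs searched on both strands, CACGTG (E-box, bound by MYC proteins), CTTTGAT (TCF and LEF) and GGGCGG (GC box). Among 32851 RefSeq promoters, 6.02%, 3.21% and 32.7% hold them in the same window of 250 bases.
Lin28a (GRCm38.p6, chr4:134018817-134019066, minus strand): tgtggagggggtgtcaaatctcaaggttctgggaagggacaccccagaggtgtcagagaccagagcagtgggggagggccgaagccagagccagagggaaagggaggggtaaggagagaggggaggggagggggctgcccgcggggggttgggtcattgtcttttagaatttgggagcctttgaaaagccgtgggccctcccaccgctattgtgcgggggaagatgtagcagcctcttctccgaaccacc
Lin28b (GRCm38.p6, chr10:45470202-45470451, minus strand): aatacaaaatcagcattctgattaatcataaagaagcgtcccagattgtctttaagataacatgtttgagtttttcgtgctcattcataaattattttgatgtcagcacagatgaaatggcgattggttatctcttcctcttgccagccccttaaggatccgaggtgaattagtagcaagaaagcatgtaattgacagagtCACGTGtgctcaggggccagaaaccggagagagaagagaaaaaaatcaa
The Lin28b window holds an E-box, and the Lin28a window holds none of the 3 motifs. The Lin28a window is 61.2% G or C with 7 CG pairs, and the Lin28b window is 39.2% with 6, where the median of all promoters is 6 CG pairs.

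IGF2BP1, IGF2BP2 and IGF2BP3 are oncofetal RNA-binding proteins that hold mRNAs such as Igf2 and Myc in stable particles. The brightest Igf2bp1 probe read 4.05 and 3.60 in mutants 1 and 9 and 3.43 and 3.57 in wild types 3 and 4. Mutant 9 lay just above the higher wild-type array, and mutant 1 stood apart from the other arrays. The Igf2bp1 log2 difference was 0.33 (SE 0.19, limma adjusted p = 0.585), and without mutant 1 it was 0.10. Its other probes differed by 0.24 and 0.09.

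The brightest Igf2bp3 probe read 2.98 and 2.84 in mutants 1 and 9 and 2.71 and 2.69 in wild types 3 and 4. The genotypes did not overlap, and the log2 difference was 0.21 (SE 0.09, 95% interval −0.03 to 0.46, limma adjusted p = 0.487). Its other probes differed by 0.11 and 0.05, and at the latter the genotypes overlapped. Igf2bp2, the member of the family with the widest adult expression, read 2.98 and 3.04 against 2.84 and 2.93, and was the only gene of the set without overlap in which mutant 9 exceeded mutant 1. Its log2 difference was 0.12 (SE 0.08, limma adjusted p = 0.637). The Igf2bp2 interval of −0.11 to 0.35 leaves out the differences fitted for Sall4 and Lin28a, but overlaps the intervals of both.

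HMGA1 and HMGA2 bend DNA at AT-rich sites, and Hmga2 is the classical let-7 target with several sites in its mRNA. The brighter Hmga2 probe read 5.07 and 4.57 in mutants 1 and 9 and 4.72 and 4.63 in wild types 3 and 4. The Jmjd3-/- arrays lay on both sides of the wild-type arrays, 0.50 apart. The log2 difference was 0.15 (SE 0.20, limma adjusted p = 0.801), it was −0.10 without mutant 1 and 0.40 without mutant 9, and the dimmer probe gave 0.11, also with overlap. The Hmga1 probe was among the brightest used here, with processed signals from 245691 to 267754 and no saturation. It read 8.67 and 8.80 against 8.76 and 8.74, and its log2 difference of −0.01 (SE 0.09, 95% interval −0.26 to 0.23, limma adjusted p = 0.970) had no stable sign over arrays left out (−0.08 to 0.06). The RefSeq table also lists a gene named Hmga1b and a transcribed pseudogene of Hmga2, and whether the probes bind their RNA was not tested.

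SALL4 is a zinc finger factor of stem cells and of axial progenitors. Its brighter probe (A_51_P349087, chromosome 2) read 2.69 and 2.28 in mutants 1 and 9, against 1.79 and 1.81 in wild types 3 and 4. The wild-type arrays differed by 0.02 and both Jmjd3-/- arrays lay well above them. The log2 difference was 0.68 (SE 0.16, 95% interval 0.21 to 1.15), with a limma adjusted p of 0.355. A difference at least this high was found in 278 of 13581 genes, and over arrays left out it ranged from 0.47 to 0.88.

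The Sall4 probes disagreed in size. The dimmer one read 0.757 and 0.786 in mutants 1 and 9 and 0.785 and 0.377 in wild types 3 and 4, so the genotypes overlapped and wild type 4 alone stood low. Its log2 difference was 0.19 (SE 0.17, limma adjusted p = 0.740 in the fit over all probes). The signal of the brighter probe less that of the dimmer differed between genotypes by 0.49, with an exact two-sided permutation p of 0.333, again the smallest value possible. With the mean of both probes the Sall4 difference was 0.43 (limma adjusted p = 0.384).

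MYCN drives the growth of embryonic progenitors and is the MYC protein most tied to the early neural tube and mesoderm. The brighter Mycn probe read 3.56 and 3.36 in mutants 1 and 9 and 3.27 and 3.35 in wild types 3 and 4. Mutant 9 was level with wild type 4. The log2 difference was 0.15 (SE 0.11, 95% interval −0.16 to 0.45, limma adjusted p = 0.650), and the dimmer probe differed by 0.02 with overlap. Without mutant 1 the Mycn difference was 0.045, and without mutant 9 it was 0.25.

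**Figure D2:**
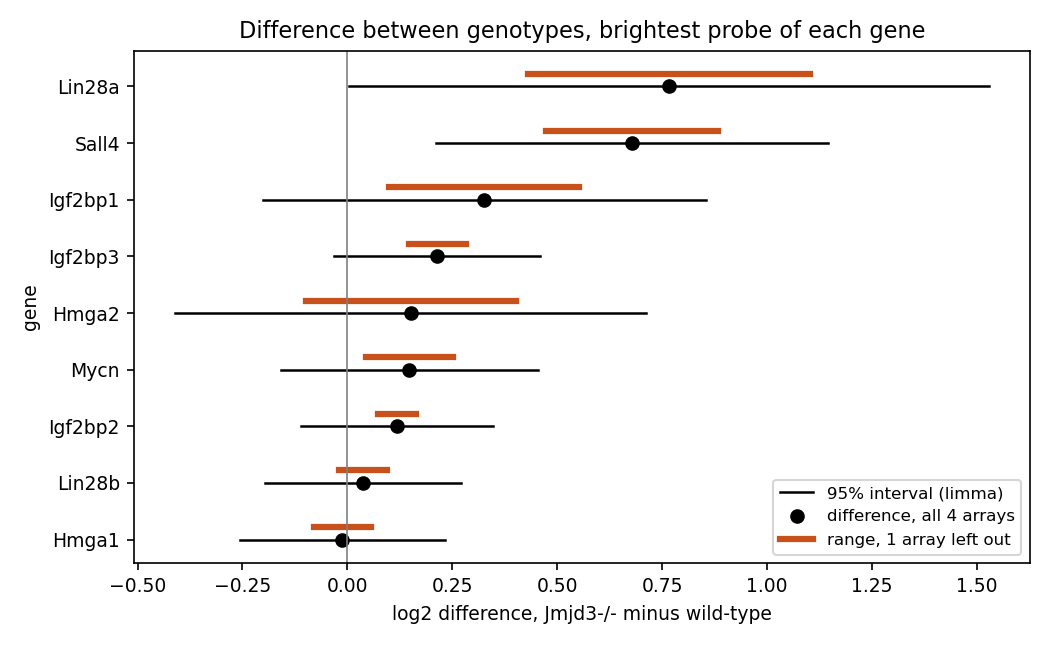
Log2 difference between Jmjd3-/- and wild-type for the brightest probe of each of the 9 genes (points) with its 95% interval from limma (black lines) and the range when 1 array is left out (orange bars). The intervals of Lin28a and Sall4 lie above 0 before adjustment over all genes, and those of the other 7 include 0.

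The spread of the Jmjd3-/- pair was wider than that of the wild-type pair in 8 of the 9 genes, beside 71.0% of all genes. Mutant 1 was the highest of the 4 arrays in 7 of them, beside 29.1% of all genes. Patterns over the 4 arrays were compared by Euclidean distance after centring on the wild-type mean. The genes nearest to Lin28a were Kif26b (0.05), Cpeb2 (0.07) and Lor (0.08), and those nearest to Lin28b were Zfp354c (0.0047), Dyrk1a (0.0070) and Aass (0.01). They were picked from 13581 genes over only 4 arrays, and a shared cause was not tested. Cpeb2 was dim, at −5.41 and −5.13 in wild types 3 and 4. The lowest signals well above background on those arrays were −5.52 and −5.56.

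Genes that carry out let-7 processing and decay lay on both sides of wild-type, with 10 of 15 higher, beside 46.9% of all genes. Of the 15, 1 was higher and 0 lower at an unadjusted p under 0.05, beside 5.15% and 5.93% of all genes, and the median log2 difference was 0.08. Tut4, the enzyme that LIN28A recruits to add uridines to let-7 precursors, read 2.75 and 2.80 in mutants 1 and 9 against 2.48 and 2.56, a difference of 0.25 (SE 0.08, limma adjusted p = 0.418), and of 0.05 with the mean of its probes. Its 3 dimmer probes overlapped between genotypes and differed by −0.13 to 0.14. Drosha, which cuts primary microRNAs, differed by 0.13 (SE 0.08), and Dis3l2, the nuclease that degrades uridylated let-7 precursors, by 0.12 (SE 0.08). Dicer1, which cuts the precursor hairpin and was picked after its values were seen, read 1.85 and 0.37 in mutants 1 and 9 against 0.75 and 0.82, so the mutants lay far apart on either side of wild-type.

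Known let-7 targets outside the set lay on both sides of wild-type. Of 19 tested, 12 were higher and 7 lower, beside 46.9% of all genes higher, with a median of 0.06. At an unadjusted p under 0.05, 2 were higher and 1 lower, beside 11.1% of all genes in either direction. Nr6a1 encodes GCNF, a nuclear receptor that governs trunk formation. It read 2.42 and 2.14 in mutants 1 and 9 against 1.47 and 1.57 in wild types 3 and 4. The groups lay far apart relative to the spread within each, with a log2 difference of 0.76 (SE 0.13, limma adjusted p = 0.323). Arid3b, a DNA-binding protein that works with ARID3A, read 3.82 and 3.34 against 2.82 and 3.05. Its difference was 0.65 (SE 0.21, limma adjusted p = 0.425, 0.40 without mutant 1), and its other probes gave 0.86 and 0.78 without overlap. Thbs1, which encodes the matrix protein thrombospondin-1, differed by −0.45 (SE 0.15, limma adjusted p = 0.432).

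Paralogs of the set included the other Sall genes. Sall1 read −0.32 and −0.81 in mutants 1 and 9 against −1.67 and −1.43 in wild types 3 and 4, a difference of 0.98 (SE 0.21, limma adjusted p = 0.335). Sall2 differed by 0.37 (SE 0.08, limma adjusted p = 0.337) and Mycl, another MYC gene, by 0.27 (SE 0.08, limma adjusted p = 0.390), both without overlap. Of 10 paralogs tested, 3 were higher and 0 lower at an unadjusted p under 0.05, beside 5.15% and 5.93% of all genes, with a median of 0.06.

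The partners of Mycn were mixed. Of 11 genes of the MYC and MAX network, 2 were higher and 0 lower at an unadjusted p under 0.05, beside 5.15% and 5.93% of all genes, with a median of 0.04. These were Mycl and Mlxip, a glucose-sensing partner of MLX, at 0.25 (SE 0.09, limma adjusted p = 0.445), and both missed that limit under median scaling. Myc itself read 1.76 and 1.85 in mutants 1 and 9 against 1.95 and 2.13, a difference of −0.23 (SE 0.10, limma adjusted p = 0.510). Of 7 growth genes that MYC proteins drive, 0 passed in either direction, beside 11.1% of all genes. Cad, the enzyme that starts pyrimidine synthesis, differed by 0.40 (SE 0.16), Polr1b, a subunit of RNA polymerase I, by 0.21 (SE 0.10) and the nucleolar protein gene Fbl by −0.07 (SE 0.11).

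Genes known for later stages included Nfia and Nfib, which lay lower in both mutants. Nfib, a nuclear factor I gene that starts late in neural development, read −3.47 and −3.21 in mutants 1 and 9 against −2.01 and −2.08 in wild types 3 and 4. Its level was 0.407 of wild-type, a log2 difference of −1.30 (SE 0.12, limma adjusted p = 0.168). A second probe above background gave −1.25. Nfia, its paralog, read −4.66 and −4.96 against −3.51 and −4.03, a difference of −1.04 (SE 0.23, limma adjusted p = 0.335). Zbtb20, a repressor of later brain and liver genes, differed by 0.34 (SE 0.10, limma adjusted p = 0.402), and Nfix was not well above background on enough arrays to be tested. The list has only 3 tested genes, of which 1 was higher and 2 lower at an unadjusted p under 0.05. Over all genes these shares were 5.15% and 5.93%. These dim probes depended on the background correction. With normexp and quantile normalisation the difference was −0.78 for Nfib, −0.42 for Nfia and 0.033 for Zbtb20, which then missed that limit.

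**Figure D3:**
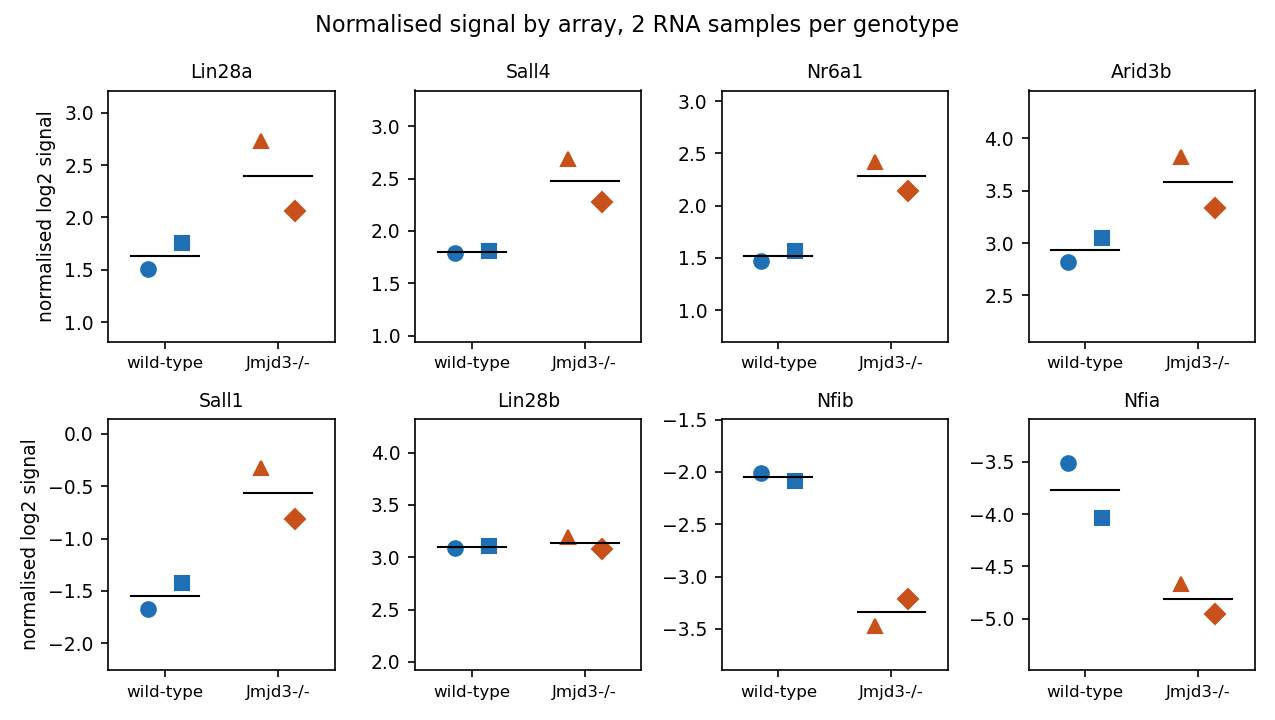
Normalised log2 signal of 8 genes on each array (circles: wild-type replicate 3, squares: wild-type replicate 4, triangles: Jmjd3-/- replicate 1, diamonds: Jmjd3-/- replicate 9, lines: means), each panel spanning the same log2 range. Lin28a, Sall4, Nr6a1, Arid3b and Sall1 lay higher in both Jmjd3-/- arrays, Nfib and Nfia lower, and Lin28b overlapped.

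Of 5 other oncofetal genes tested, 1 lay higher and 4 lower, beside 46.9% of all genes higher. Among these 5, 0 were higher and 2 lower at an unadjusted p under 0.05, beside 5.15% and 5.93% of all genes. Their median was −0.54. Afp, the fetal plasma protein of yolk sac and liver, read 2.78 and 2.51 in mutants 1 and 9 against 4.17 and 3.64 in wild types 3 and 4, a difference of −1.26 (SE 0.23, limma adjusted p = 0.329). The imprinted growth regulator Plagl1 differed by −0.54 (SE 0.09, limma adjusted p = 0.325) on its brighter probe and by −0.53 on the other. Gpc3, a cell surface proteoglycan, differed by 0.21 (SE 0.08, limma adjusted p = 0.491).

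Markers of cell types that the tissue could hold also differed between genotypes. In whole tissue, fewer cells of a type and less RNA per cell cannot be told apart. All 12 tail bud markers lay higher in both Jmjd3-/- arrays, beside 23.0% of all genes, and 10 were higher at an unadjusted p under 0.05, beside 5.15%. Their median log2 difference was 1.21. Their summed signal, each gene in units of the 75th percentile of its array, was 37.1 to 65.3 in Jmjd3-/- and 19.5 to 21.4 in wild-type. Among them Cdx2, a caudal homeobox factor, differed by 1.45 (SE 0.23), Wnt3a, a signal that maintains the tail bud, by 1.42 (SE 0.25), and Cdx1 by 0.79 (SE 0.11). Against the wild-type mean the median marker stood at 1.64 in mutant 1 and 0.88 in mutant 9, the same order as for Lin28a and Sall4. That order was not particular to these markers. The medians of the neuron, erythroid, head and yolk sac markers also lay further from wild-type in mutant 1. For neuron markers they were −1.03 in mutant 1 and −0.64 in mutant 9. The part of tail bud cells in the Lin28a and Sall4 values was not tested.

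Neuron markers lay lower. All 8 tested lay lower in both Jmjd3-/- arrays, beside 23.7% of all genes, and 6 were lower at an unadjusted p under 0.05, beside 5.93%. They had a median of −0.78 and a summed signal of 4.04 to 5.06 against 7.56 in both wild-type arrays. Nefm, a neurofilament gene, differed by −0.75 (SE 0.14) and Stmn2, a gene of growing axons, by −0.56 (SE 0.12). Dcx, a gene of young neurons, differed by −2.17 (SE 0.50) and was well above background on 1 of the 2 Jmjd3-/- arrays. Neurod1 was not well above background on any of the 4 arrays. The part of these cells in the Nfib and Nfia values was not tested.

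Germ cells also express Lin28a and Sall4. Of 6 germ cell markers tested, 0 were higher and 1 lower at an unadjusted p under 0.05, beside 5.15% and 5.93% of all genes. Their median was 0.09 and their summed signal 1.02 to 1.41 in Jmjd3-/- and 1.58 to 1.84 in wild-type. Dazl was not well above background on any of the 4 arrays, and Pou5f1 was above it on 1 array of each genotype. Without Tfap2c, which is also active in surface ectoderm and neural crest, the sum (added after the data were seen, like that without Afp) was 0.649 and 0.721 in mutants 1 and 9 against 0.637 and 0.673. Most of it came from Dnd1 and Prdm1. Dppa3, named after its values were seen, read −4.77 and −3.82 in mutants 1 and 9 against −3.47 and −6.16. It was well above background on only 1 wild-type array. The number of germ cells was not tested. Tfap2c differed by −1.05 (SE 0.35), Dnd1 by 0.16 (SE 0.09) and Prdm1 by −0.06 (SE 0.09).

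Most blood and head markers lay lower, and yolk sac markers were mixed. Of 9 primitive erythroid markers 1 was higher and 8 lower, beside 46.9% of all genes higher. Their median was −0.42 and their summed signal 316.2 to 446 against 475 to 602. Most of that sum came from Hbb-bh1, at 7.69 and 7.98 in mutants 1 and 9 against 8.08 and 8.30 in wild types 3 and 4. At the erythroid markers wild type 4 exceeded wild type 3 by a median of 0.50. Rhag differed by −0.81 (SE 0.20), Hbb-bh1 by −0.36 (SE 0.15) and Hbb-y by −0.88 (SE 0.40). Among head and branchial arch markers 0 were higher and all 4 tested lower, beside 46.9% of all genes higher. Their median was −1.75 and their summed signal 0.762 to 1.71 against 4.36 to 5.07. The forebrain genes Otx2 and Six3 were not well above background on any of the 4 arrays. Of the 4 tested, Barx1, a homeobox gene of the branchial arches, fell by 2.75 on the log2 scale (SE 0.10, limma adjusted p = 0.0409). Without mutant 1 or either wild type, fits in which 1 genotype has a single array and the other gives the spread, the adjusted p was 0.130 to 0.315 and the difference −2.66 to −2.84. The difference was −2.57 for Lhx2 (SE 0.74), −0.61 for Dlx2 (SE 0.19) and −0.93 for Emx2 (SE 0.72). Without mutant 1, Lhx2 differed by −1.56, Dlx2 by −0.38 and Emx2 by 0.029, and a second Emx2 probe differed by 0.05 with overlap. Of 7 yolk sac endoderm markers 2 were higher and 5 lower, beside 46.9% of all genes higher, with a median of −0.60. At an unadjusted p under 0.05, 2 were higher and 2 lower, beside 5.15% and 5.93% of all genes. Their summed signal was 10.03 to 12.0 against 20.0 to 24.7, and without Afp it was 3.16 and 6.29 in mutants 1 and 9 against 6.72 and 7.53. Most of the sum without Afp came from Rbp4, named after its values were seen. Rbp4 read 1.46 and 2.55 in mutants 1 and 9 against 2.67 and 2.84. The uptake receptor gene Cubn differed by 0.56 (SE 0.12), and its partner Amn, named after its values were seen, by 0.78. Ttr differed by −0.60 (SE 0.19, limma adjusted p = 0.418), but its probe was not well above background on either Jmjd3-/- array. With normexp and quantile normalisation the Ttr difference was −0.15. The part of these cells in the values of the 9 genes was not tested.

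**Figure D4:**
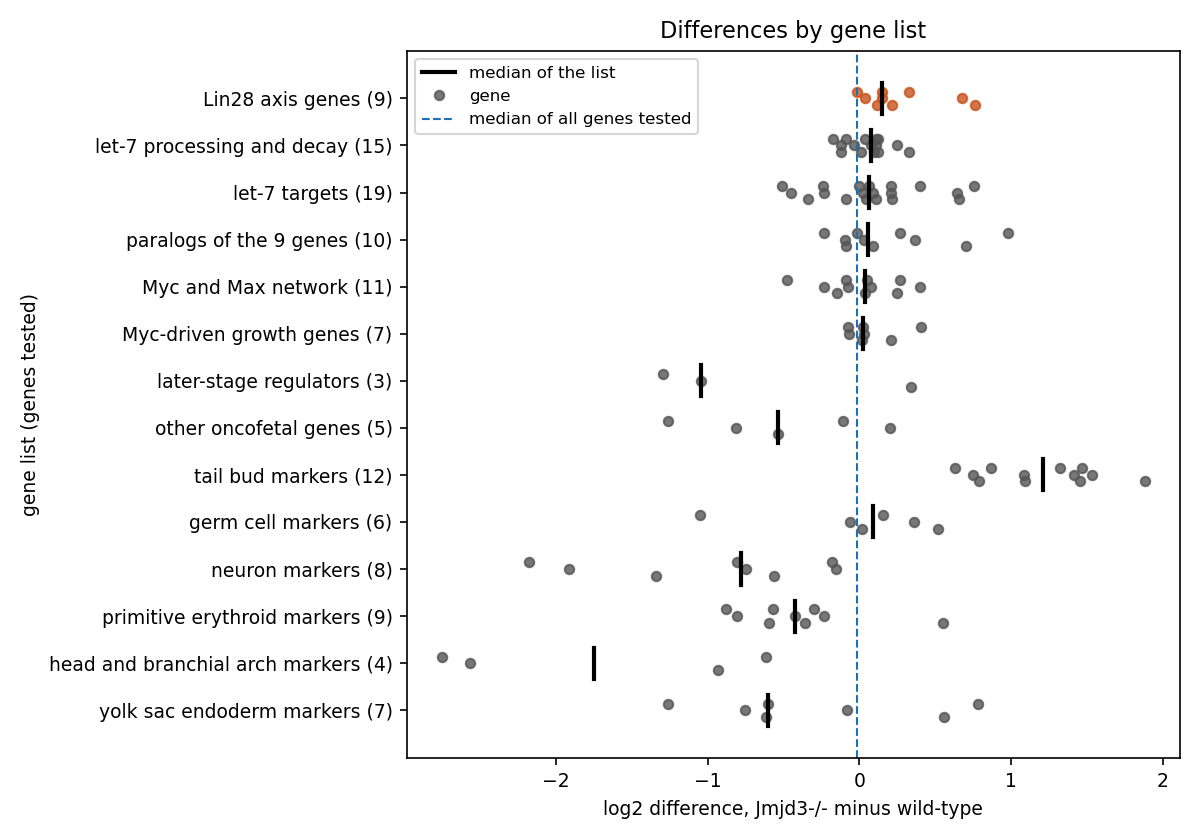
Log2 difference between Jmjd3-/- and wild-type of each tested gene (points) by list, with the number tested in parentheses, the median of each list (black bars) and the median of all genes tested (dashed line, −0.01). The 9 Lin28 axis genes centre on 0.15, the tail bud markers on 1.21 and the neuron markers on −0.78.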

How the data were processed

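Spot intensity values are 1-colour (Cy3), per the file headers, and were made with Agilent Feature Extraction 10.7.3.1 per the submitters' processing notes. That software subtracted background and a spatial trend within each array, per the file headers, with no normalisation between arrays. The authors also deposited a table of log2 values without a stated scale. Its values equalled log2 processed signals that were scaled to the 75th percentile and then centred on the wild-type mean, with 99.9% of probes within 0.01 and column medians from −0.02 to 0.05. Scale, centring and direction of that table are known only from this match.

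Control spots (1639 of 45018) were left out, spots of a probe were averaged as log2 values, and each array was set to 0 at its 75th percentile. Names came from the RefSeq gene table (GRCm38.p6) by accession for 26690 and by synonym for 23 of 41174 probes. The file headers name another build, so for the probes only names and chromosomes of the table were used. Positions in GRCm38.p6 served only for the printed sequences and for the genes whose spans hold let-7 hairpins. The probe with the highest mean stood for each gene. Tests ran on the 13581 genes whose probe exceeded background clearly (the software's mark) in both samples of 1 genotype or of both. The fit used limma 3.58.1 under R 4.3.3 (lmFit, eBayes, prior 1.79 degrees of freedom, Benjamini-Hochberg). It was also run on simulated data, where all genes had the same spread and the changes exceeded those of the 9 genes. That run cannot show how the fit performs at the spreads and differences seen here. No spot of the 17 probes was marked as an outlier. The background alternative used median spot signals, since the files hold no mean. The 9 genes, the lists and the tests were chosen with earlier results of these data known. The text names all of the 9 genes, the 3 genes of smallest p in each other list, all of a list of 4 or fewer, and the 3 genes nearest in pattern to Lin28a and Lin28b. For Ttr each Jmjd3-/- array counted at its own signal, which was higher than the lowest signal well above background on that array.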

Additional observations from a re-analysis of the deposited data

How the results depend on the processing

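Under 9 other settings (median scaling, normexp with quantile normalisation, both other filters on dim probes, the mean of a gene's probes, a fit over probes, no outlier spots, an intensity trend and the authors' deposited table), each of the 9 genes kept the sign of its difference, and 0 passed the adjusted threshold. Averaged over all their probes, Igf2bp3 was 0.12, Mycn 0.086 and Sall4 0.43. Normexp brought dim genes nearer to 0, with Thbs1 at −0.25, Cdx1 at 0.48, Stmn2 at −0.31, Dcx at −0.83, Rhag at −0.40, Dnd1 at 0.094 and Emx2 at −0.36. The count of all genes called by limma, 3 higher and 2 lower, was less stable. Median scaling and the mean of a gene's probes each gave 4 lower. Normexp gave 1 higher and 0 lower, with 670 and 790 at an unadjusted p under 0.05, and the intensity trend gave 1 higher. Without a filter there were 0 and 0 (767 and 854 unadjusted), with the filter on all 4 arrays 0 and 0 (690 and 725), and over probes 0 and 0 (1215 and 1206). With 1 array left out, the lone array is assumed to vary like the other genotype. The calls then ranged from 0 to 47 higher and 0 to 120 lower, both highest without Jmjd3-/- replicate 9 and 0 without any other array. The median of the 9 ranged from 0.10 to 0.28, the number higher from 7 to 8 and lower from 1 to 2. Hmga2 ranged from −0.10 to 0.40, Lin28b from −0.021 to 0.095 and Hmga1 from −0.079 to 0.055, and the sign of each turned without Jmjd3-/- replicate 1. Fbl (−0.19 to 0.054), Emx2 (−1.89 to 0.029) and Prdm1 (−0.13 to 0.0044) also changed sign. Without Jmjd3-/- replicate 1, Cad was 0.24, Polr1b 0.11, Tfap2c −0.60, Hbb-bh1 −0.21 and Hbb-y −0.39. The Barx1 call was lost with normexp, each other filter, the fit over probes and without any 1 array other than Jmjd3-/- replicate 9. The cause was not tested. No paired analysis was possible because the genotypes share no replicate number.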

Other observations

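RefSeq places some let-7 hairpins inside longer genes, strand not considered, and these genes were looked at after other values had been seen. Huwe1, whose span holds the let-7f-2 and miR-98 hairpins, read 3.37 and 2.97 in mutants 1 and 9 against 2.58 and 2.75 in wild types 3 and 4, a difference of 0.50 (SE 0.17, limma adjusted p = 0.445). Wdr82, whose span holds let-7g, differed by −0.21 (SE 0.10, limma adjusted p = 0.519), and Mir100hg, whose span holds let-7a-2, by −0.52 (SE 0.19, limma adjusted p = 0.461). Shroom3, whose span holds the hairpin of miR-1961, a microRNA with the same seed, differed by 0.33 (SE 0.09, limma adjusted p = 0.390). The level of a host gene does not measure the mature microRNA.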
